A study of Mus musculus with 2 samples.

Results

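The collagen genes of the mouse were followed in a pool of epiblast stem cells and embryoid bodies. The members were all genes whose symbol is Col, a number, a and a number, which gave 44 of the 33696 genes measured. They fell into 11 fibrillar chains, 6 basement membrane chains (type IV), 6 beaded filament chains (type VI), 9 fibril-associated chains, 4 transmembrane chains, 3 short-chain network chains, 3 chains of the basement membrane zone and 2 others. The study describes Delmix, a mouse epiblast stem cell line kept without treatment, and embryoid bodies grown from it and collected at day 2, with 1 sample per group. Cells were separated with trypsin and profiled by droplet RNA sequencing that reads the 3' end of each transcript (chemistry version 3.1), with a target of 10000 cells per sample. No genetic change or agent is named for either group. The labels describe a channel for each sample, whereas the counts lie in 1 pooled matrix whose 2 tags, CMO311 and CMO312, match no sample label, so stem cells and embryoid bodies are not compared here.

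Collagens are secreted or membrane-bound proteins in which 3 chains wind around each other into a triple helix. This winding needs glycine at the start of each triplet of residues, because only glycine fits at the centre. Fibrillar chains form the fibrils of connective tissue and are made mainly by fibroblasts and related mesenchymal cells. Type IV chains form the sheet-like network of basement membranes, which embryonic epithelia lay down, and their helix is broken by interruptions that let the sheet bend. Type I collagen is built mostly of Col1a1 chains paired with Col1a2, and the usual type IV molecule of Col4a1 paired with Col4a2.

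The repeat that sets the fibrillar chains apart can be read in the coding sequences, taken from the gene models of GENCODE release M21, which hold a coding transcript for 44 of the 44 members. For Col1a1 and Col3a1 the first 10 triplets of the longest run are shown, and for Col4a1 and Col4a2 the last 5 triplets of the longest run followed by the 15 codons after it. Capitals mark the glycine codons (GGN) that open the triplets of the run. Each stretch is 90 bases, 5′ to 3′.
Col1a1: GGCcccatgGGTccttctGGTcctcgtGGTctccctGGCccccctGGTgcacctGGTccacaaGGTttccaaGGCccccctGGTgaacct
Col3a1: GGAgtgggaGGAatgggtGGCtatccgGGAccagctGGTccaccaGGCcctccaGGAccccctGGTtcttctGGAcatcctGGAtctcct
Col4a1: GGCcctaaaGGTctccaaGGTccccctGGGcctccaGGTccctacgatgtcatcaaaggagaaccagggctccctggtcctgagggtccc
Col4a2: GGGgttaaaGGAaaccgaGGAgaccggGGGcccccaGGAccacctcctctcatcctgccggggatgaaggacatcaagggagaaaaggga
These are codons 168 to 197 of Col1a1, 164 to 193 of Col3a1, 1338 to 1367 of Col4a1 and 960 to 989 of Col4a2. The longest run without a break was 337 to 344 triplets in 9 of the 11 fibrillar chains, 216 in Col24a1 and 217 in Col27a1. In the 6 type IV chains it was 39 to 66 triplets, and each of these chains held 16 to 19 separate runs of at least 10 triplets. The other 27 members had a longest run of 23 to 113 triplets.

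Col4a1 and Col4a2 also lie head to head, so that their transcripts start from one short piece of chromosome 8. In the RefSeq promoter table (build GRCm38.p6), which holds 35 of the 44 members, the start of Col4a2 on the plus strand and the start of Col4a1 on the minus strand are the ends of 22 bases at chr8:11312805-11312826, within which the annotated first exons overlap. They are shown on the plus strand, in lower case throughout because no part is singled out.
Start region of Col4a2 and Col4a1: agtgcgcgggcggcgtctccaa
In the GENCODE models the paired genes Col4a3 and Col4a4 have starts 71 bases apart, and Col4a5 and Col4a6 have starts 1308 bases apart.

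Of 21593 called cells, 16841 (78.0%) were kept, those with 1000 or more genes and no more than 10% of UMIs from mitochondrial genes. A UMI is a molecular tag that counts 1 captured transcript. Kept cells had a median of 6473 UMIs (1265 to 34748), and 11.9% were called doublets and left in. They were grouped into 12 clusters without using any collagen gene, and clusters were named from marker lists that hold no collagen gene. Levels are CPM, the UMIs of a gene summed over a cluster per 1000000 UMIs of that cluster, with exact Poisson 95% intervals. These intervals and the binomial intervals below cover counting error only. With 1 pooled sample there was no replicate and no test, so a gene is called higher or lower by a rule of size, at least 2-fold against all other kept cells (1 CPM added to both) and at least 20 CPM on the higher side. By this rule a gene under 20 CPM in the other cells cannot be called lower. A gene under 20 CPM in the cluster cannot be called higher.

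All 44 members were detected, with 59216 UMIs in the kept cells, which is 0.0489% of all UMIs and 3.52 per cell. Of these members, 22 reached 20 CPM in a cluster of at least 100 cells and are named below, among them 7 fibrillar and 4 type IV chains. The 22 others had 13 to 941 UMIs (median 81) and at most 19.3 CPM in such a cluster. That highest value was Col27a1, a fibrillar chain, in cluster 6, just under the limit, and Col4a6 with 24.4 CPM in the same cluster was just above it. Collagen genes were most abundant in cluster 8, at 6920 CPM for their sum, and least in cluster 11, at 137 CPM.

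**Figure D1:**
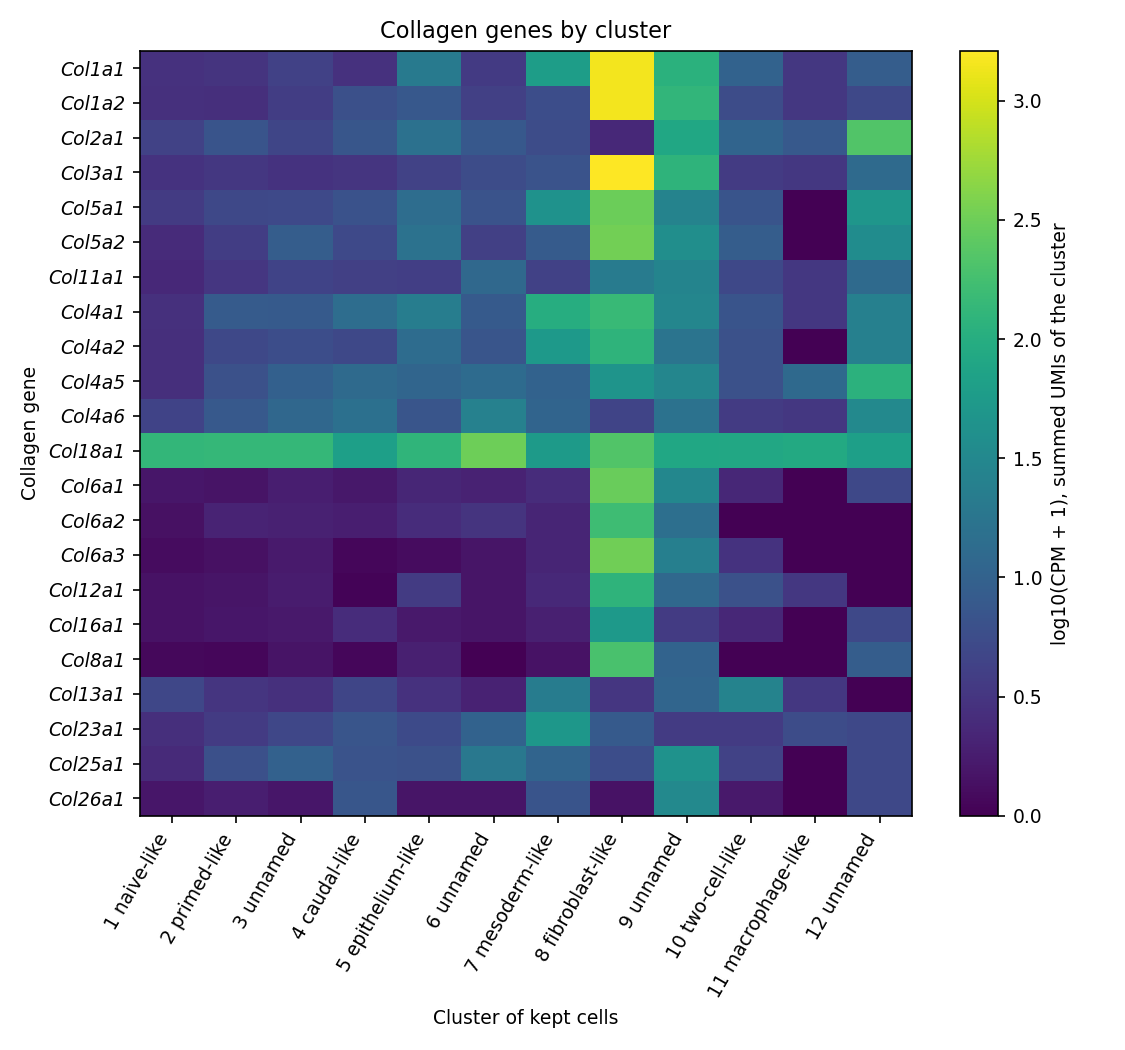
Level of the 22 named collagen genes (rows, by class from fibrillar at the top) in the 12 clusters of kept cells (columns), as log10 of CPM plus 1 from summed UMIs. The column of cluster 8 is bright from Col1a1 to Col8a1 except at Col2a1, Col4a6 and, less so, Col11a1, while the row of Col18a1 is bright in every cluster.

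Cluster 8 held 527 cells, 3.13% of those kept, and is called fibroblast or feeder-like. In it 12 of the 13 fibroblast or feeder markers were raised, and their summed level was 4205 CPM against 29.6 CPM in the other cells. From other lists, 2 of 6 smooth muscle or pericyte markers (Acta2 and Tagln, with a list sum of 645 against 79.2 CPM) were raised, and 2 of 12 visceral or parietal endoderm markers (Thbd and Plat, 189 against 75.2 CPM), with 3 of those 12 at 0. Also raised were 2 of 10 caudal epiblast markers, Sox9 of the chondrocyte list, Runx2 of the osteoblast list and Klf4 of the naive list. The part of these cell types in the collagen levels was not tested. The labels name no feeder cells. Of cluster 8, 23.5% of cells were called doublets, the highest share of any cluster.

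Both fibrillar and type IV chains were higher in this cluster than in the other cells, the fibrillar chains by 115-fold and the type IV chains by 9.64-fold for their sums, with 1 CPM added to both sides. The fibrillar sum was 5177 CPM (5112 to 5244) in cluster 8 and 43.9 CPM in the other cells, and the type IV sum was 316 CPM (299 to 332) against 31.8 CPM. Cluster 8 held 82.3% of the fibrillar UMIs (95% exact binomial interval 81.8 to 82.7) and 28.1% of the type IV UMIs (26.8 to 29.3). Fibrillar UMIs outnumbered type IV UMIs by 16.4 to 1 (15.6 to 17.3) in cluster 8 and by 1.38 to 1 (1.32 to 1.44) in all other kept cells. Of the other classes, 85.5% of the type VI UMIs lay in cluster 8.

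Of the 16 members that reached 20 CPM on either side, 15 were higher in cluster 8 and 0 lower. These 15 had at most 10.7 CPM in the other cells, so they were tested through cluster 8 alone and none could be called lower. Over all genes tested 17.5% were higher and 14.0% lower. The median log2 ratio was 5.96 for the members and -0.15 over all genes tested. The 15 genes were 6 fibrillar chains, 3 type IV chains, 3 type VI chains, Col8a1, Col12a1 and Col16a1. The remaining tested member, Col18a1, stood at 219 CPM (206 to 233) against 125 CPM in the other cells, 1.75-fold.

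The chains of types I and III led the list. Col3a1, the chain of type III collagen of soft connective tissue, had 1619 CPM (1582 to 1656) in cluster 8. All other cells together had 3.55 CPM, a 356-fold ratio with 1 CPM added to both. Col1a2 had 1434 CPM (1399 to 1469) against 4.08 CPM, and Col1a1 had 1419 CPM (1384 to 1453) against 6.81 CPM. These genes made up most of the fibrillar sum. Col5a1 and Col5a2, chains of the type V collagen that helps to start fibrils, had 305 CPM (290 to 322) and 339 CPM (323 to 357), against 6.12 and 4.90 CPM. Col11a1, a related chain best known from cartilage, had 20.9 CPM (17.0 to 25.6). Col2a1, the main fibrillar chain of cartilage, had 6 UMIs in cluster 8 or 1.31 CPM (0.480 to 2.85), below the 6.47 CPM of the other cells.

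Beyond the fibrils, Col6a1, Col6a2 and Col6a3, the common chains of type VI microfilaments, stood at 301, 164 and 321 CPM against at most 0.995 CPM elsewhere. Their relatives Col6a4, Col6a5 and Col6a6 had 2, 2 and 0 UMIs there, which for Col6a6 allows up to 0.654 CPM. Col8a1, a short-chain network collagen, had 195 CPM (182 to 208). Among the fibril-associated chains, which decorate fibril surfaces, Col12a1 had 121 CPM (111 to 131) and Col16a1 53.9 CPM. Among type IV chains, Col4a1 had 144 CPM (133 to 155), Col4a2 121 CPM (112 to 132) and Col4a5 44.7 CPM (38.8 to 51.3). Col4a6, the head-to-head partner of Col4a5, had only 3.49 CPM (1.99 to 5.67). The ratio of Col4a5 to Col4a6 was 12.8 (7.70 to 22.8) in cluster 8 and 0.849 (0.770 to 0.936) in the other cells.

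Single cells of cluster 8 were compared after each cell was thinned to 2000 UMIs, which left out 294 kept cells, 164 of them in cluster 6. At that depth Col1a1, Col1a2 and Col3a1 were seen in 76.6%, 78.5% and 77.8% of 526 cells (before thinning, 91.5%, 92.2% and 89.6% at a median of 7383 UMIs). The macrophage-like cluster 11, which is not known for making fibrillar collagen, held a UMI of Col1a1, Col1a2 or Col3a1 in 0 of 80 thinned cells for each gene, which allows a share of up to 3.75% (before thinning 1.23% each, median 3991 UMIs). Fibrillar UMIs per thinned cell of cluster 8 ran from 0 to 101 with a median of 8 and quartiles of 4 and 15. The 10% of cells with the most held 31.4% of them. Col1a2 was seen in 86.8% of cells with Col1a1 and in 51.2% of cells without it. Over these 526 cells the logarithm of fibrillar UMIs plus 1 had a Pearson correlation of 0.41 with that of type VI UMIs and 0.26 with that of type IV UMIs. These are descriptions over cells of 1 pooled sample.

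**Figure D2:**
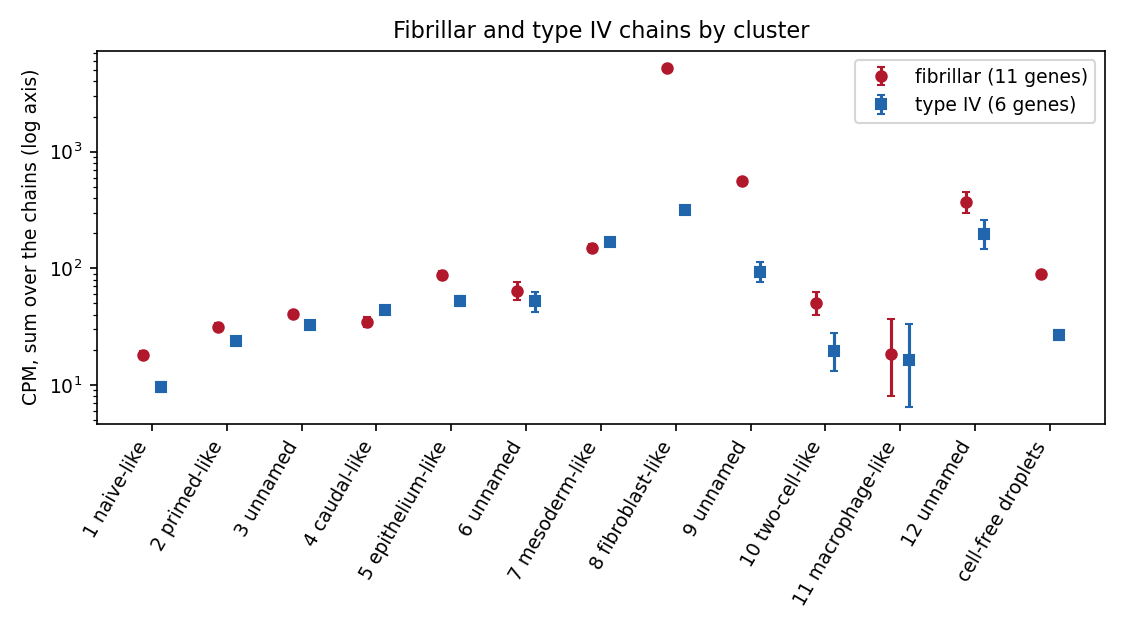
Summed level of the fibrillar and type IV chains in each cluster and in cell-free droplets, in CPM on a log axis, with exact Poisson 95% intervals as bars. The fibrillar sum is 5177 CPM in cluster 8 and at most 556 CPM in any other cluster, whereas the type IV sum is 316 CPM in cluster 8 and 169 CPM in cluster 7.

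Cluster 7 held 656 cells (3.90%) and is called primitive streak and mesoderm-like. In it 13 of the 18 markers of that list were raised, and their sum was 1159 CPM against 63.5 CPM. Type IV chains were its leading collagens, at 169 CPM (157 to 182) for the sum against 37.8 CPM in the other cells. Here type IV UMIs outnumbered fibrillar UMIs, with a ratio of fibrillar to type IV of 0.874 (0.786 to 0.971). In 284 of its cells without fibroblast marker UMIs and doublet calls it was 0.963 (0.791 to 1.17), an interval that includes 1. The ratio was also below 1 in the caudal epiblast-like cluster 4, at 0.785 (0.693 to 0.890) from 450 and 573 UMIs. Cluster 7 held 14.6% of the type IV UMIs and 2.28% of the fibrillar UMIs. From other lists, 4 of 10 simple epithelium markers (Krt8, Krt18, Krt19 and Dsp) were raised, though the list sum was lower, 598 against 745 CPM. Of the caudal epiblast markers, 3 of 10 were raised (Meis1, Meis2 and Fgf8, with a list sum of 544 against 183 CPM). Raised as well were 2 of 6 smooth muscle or pericyte markers (Tagln and Rgs5, 206 against 96.6 CPM). So were 2 of 12 visceral or parietal endoderm markers (Gata4 and Gata6, 249 against 73.0 CPM), of which 4 were at 0, and 1 each of the definitive endoderm, endothelium, chondrocyte and naive lists (Hhex, Egfl7, Sox9 and Tbx3). The part of these cell types in the collagen levels was not tested. None of the 13 fibroblast or feeder markers was raised, and their sum was 113 CPM, against 13.2 CPM in cluster 1. Doublets made up 19.4% of the cluster.

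Of 9 members tested, 5 were higher and 3 lower, against 5.90% higher and 5.53% lower over all genes tested. The higher ones were Col4a1, Col4a2, Col5a1, Col13a1 and Col23a1, and the lower ones Col1a2, Col3a1 and Col18a1. Since the other cells include cluster 8, the same rule was applied with cluster 8 left out of the reference. Then 6 of 7 were higher, with Col1a1 added, against 6.57% of all genes, and Col18a1 alone was lower, against 5.35%. The 6 had at most 7.23 CPM in that reference, so none of them could be called lower. The median log2 ratio was 3.35 for the members and 0.07 over all genes tested. The lower calls of Col1a2 and Col3a1 thus depended on cluster 8.

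By gene, Col4a1 had 98.1 CPM (89.1 to 108) in cluster 7 and Col4a2 51.3 CPM (44.8 to 58.4). In the reference without cluster 8 they had 7.23 and 4.13 CPM. Col23a1 and Col13a1, collagens that span the cell membrane, had 48.6 CPM (42.3 to 55.5) and 21.4 CPM (17.3 to 26.1). Cluster 8 had 7.20 and 2.18 CPM of the same genes, below cluster 7, beside 4.88 and 3.92 CPM in all cells outside cluster 8. Col5a1 had 42.5 CPM (36.7 to 49.0), while its partner Col5a2 had 7.42 CPM (5.11 to 10.4). After thinning, Col4a1 was seen in 103 of 643 cells of cluster 7 (38.9% before, median 5871 UMIs), Col4a2 in 9.49% and Col23a1 in 8.09%. In the macrophage-like cells the thinned shares were 0 of 80 for Col4a1 and Col4a2, which allows up to 3.75%, and 1.25% for Col23a1. Col4a2 was seen in 19.4% of cluster 7 cells with Col4a1 and in 7.59% of those without.

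The chains of type I collagen were uneven in cluster 7. Col1a1 had 270 UMIs or 60.7 CPM (53.7 to 68.4), and Col1a2 had 21 UMIs or 4.72 CPM (2.92 to 7.22). Their ratio was 12.9 (8.24 to 21.1). In cluster 8 the ratio was 0.990 (0.956 to 1.02), in cluster 1 it was 1.06 (0.751 to 1.49) and in cell-free droplets 1.26 (1.07 to 1.49). Cell-free droplets are uncalled barcodes with 150 to 300 UMIs, 72027 in all, and stand for RNA free in the suspension. The simple epithelium-like cluster 5 lay between, with 152 and 50 UMIs and a ratio of 3.04 (2.20 to 4.27). Caudal epiblast-like cluster 4 had the opposite order, with 24 and 65 UMIs and a ratio of 0.369 (0.221 to 0.598).

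In the 284 cells of cluster 7 that held no fibroblast marker UMI and were not called doublets, the ratio of Col1a1 to Col1a2 was 12.5 (5.48 to 35.1). Col1a1 stood at 49.1 CPM (38.6 to 61.5) in those cells. Col3a1, the other abundant chain of cluster 8, had 25 UMIs in cluster 7, so that Col1a1 outnumbered it by 10.8 to 1 (7.16 to 17.0). In the 284 cells that ratio was lower, 5.36 (3.00 to 10.3), from 75 and 14 UMIs. In thinned cells Col1a1 was seen in 9.49% of cluster 7 and Col1a2 in 0.467%. Of the 61 thinned cells with Col1a1, 0 had Col1a2, which allows up to 4.92%, and 24.6% had Col4a1.

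**Figure D3:**
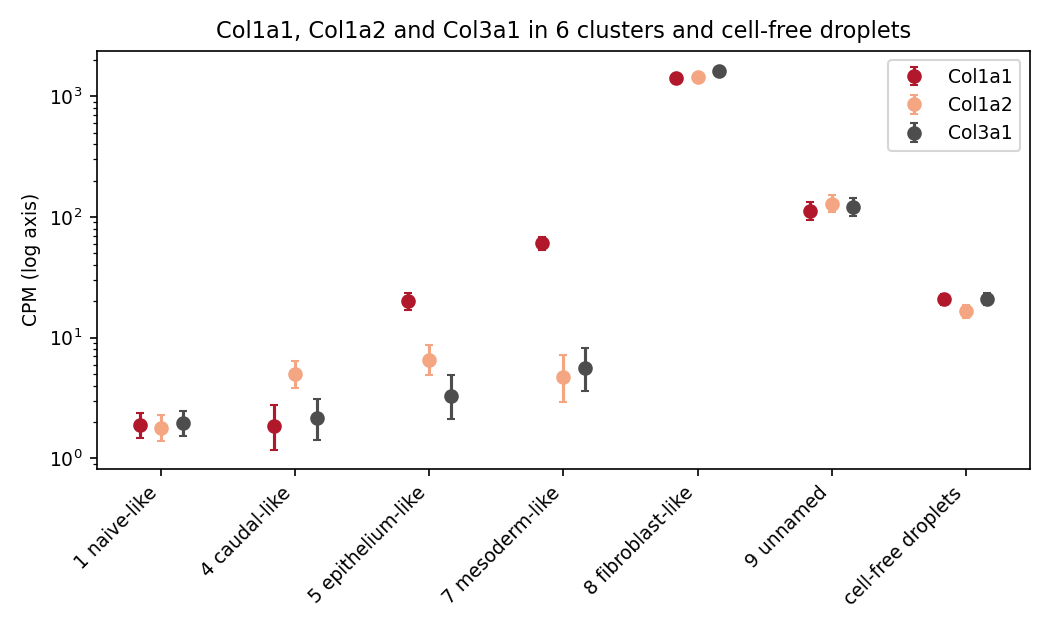
Level of Col1a1, Col1a2 and Col3a1 in 6 clusters and in cell-free droplets, in CPM on a log axis with exact Poisson 95% intervals. The genes lie together in clusters 1, 8 and 9 and in the droplets, while in cluster 7 Col1a1 at 60.7 CPM stands above Col1a2 at 4.72 CPM.

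Cluster 7 was not uniform. Its cells were divided by genes that are no collagens into 212 with a UMI of Mixl1, Mesp1 or T and none of Hand1, Kdr or Foxf1, and 114 with the reverse. The first are genes of the primitive streak, the second of lateral and extraembryonic mesoderm and vessel precursors. Col1a1 was 26.6 CPM (18.5 to 36.9) in the streak cells and 118 CPM (96.0 to 144) in the second set. Col4a1 was 56.2 against 139 CPM and Col4a2 20.5 against 85.0 CPM, so these genes were higher in the Hand1, Kdr or Foxf1 cells beyond counting error. Col5a1 was 41.7 CPM (31.4 to 54.3) against 35.4 CPM (23.9 to 50.6), and its intervals overlapped. Col25a1, another transmembrane chain, ran the other way, with 31 UMIs or 23.5 CPM against 1 UMI or 1.18 CPM (0.0299 to 6.58). The median depth was 5514.5 and 6405 UMIs. The split was chosen after cluster 7 had been seen.

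Clusters 1 to 4 had a lower fibrillar sum than the cell-free droplets, while their type IV sums lay on both sides of the droplet level. The fibrillar sum was 690 UMIs or 16.7 to 19.4 CPM (95% interval) in the naive pluripotency-like cluster 1, 31.5 CPM in the primed epiblast-like cluster 2, 40.6 CPM in the unnamed cluster 3 and 34.7 CPM in cluster 4. The cell-free droplets had 90.0 CPM (85.4 to 94.9). The droplets had 27.0 CPM of type IV chains. Cluster 1 had 9.57 CPM (8.61 to 10.6), cluster 2 had 23.8 CPM (22.0 to 25.7), cluster 3 had 32.5 CPM (30.1 to 35.0) and cluster 4 had 44.1 CPM (40.6 to 47.9). The naive-like cells had the lowest type IV level of these clusters, and cluster 4 was level with the 42.4 CPM of all cells outside it. Col4a1 alone was 1.75 CPM (1.35 to 2.22) in cluster 1, 7.26 CPM in cluster 2 and 12.9 CPM (11.1 to 15.1) in cluster 4. The part of free RNA in these levels was not tested.

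No member was higher in clusters 1 to 5, where 2.46%, 0.102%, 0.830%, 2.90% and 2.76% of all genes tested were. Lower were 6 of 7 members tested in cluster 1, 5 of 6 in cluster 2, 4 of 5 in cluster 3, 4 of 4 in cluster 4 and 3 of 5 in cluster 5. The share of all genes that was lower was 5.94%, 2.69%, 1.36%, 4.03% and 1.59% in the same order. Col1a1, Col1a2 and Col3a1 were lower in each of these clusters. Without cluster 8 in the reference, the fibrillar and type IV members were under 20 CPM on both sides in clusters 1 to 4 and could not be called, and Col18a1 was the 1 member tested. It was neither higher nor lower in clusters 1, 2 and 3, where 2.54%, 0.118% and 1.07% of all genes were higher and 4.97%, 1.90% and 0.750% lower. In cluster 4 it was lower, against 3.52% of all genes lower and 3.21% higher. Among the members that could not be called, Col1a1 kept ratios of 0.284, 0.332, 0.482 and 0.338 in clusters 1 to 4, and Col4a1 a ratio of 0.171 in cluster 1, where it was 0.118 with cluster 8 in the reference. Col3a1 had ratios of 0.554 to 0.675 in clusters 1 to 4. Col1a2 had ratios of 0.452, 0.462 and 0.717 in clusters 1 to 3, but 1.21 in cluster 4, above the reference. In cluster 5 Col1a1 and Col4a1 were higher, 2 of 3 tested, and 0 were lower, against 3.12% and 1.30%. Col1a1 had 20.1 CPM there against 5.89 CPM, and Col4a1 22.2 against 9.89 CPM. In cluster 5, 8 of the 10 simple epithelium markers were raised, and so were Tagln and Cnn1 of the smooth muscle list.

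Col18a1, the multiplexin of vascular and epithelial basement membranes whose end fragment is endostatin, was the most frequent collagen, with 0.922 UMIs per kept cell. Its levels in clusters 1, 2, 3 and 5 were 134, 135, 135 and 126 CPM and did not differ beyond counting error among the first 3. It was lower in cluster 4 at 64.2 CPM and in cluster 7 at 55.1 CPM (48.4 to 62.4). The highest level was 313 CPM (289 to 339) in the unnamed cluster 6, with cluster 8 next at 219 CPM. Cell-free droplets had 139 CPM, or 0.0301 UMIs per droplet, and the macrophage-like cells had 88.1 CPM (62.3 to 121). After thinning, Col18a1 was seen in 22.5% of cluster 1 cells and in 16 of 80 macrophage-like cells (11.9% to 30.4%). A share in that range cannot be told from that of the macrophage-like cells. The part of free RNA in these shares was not tested. Cluster 4, at 10.9%, and cluster 7, at 7.31%, lay below that range, and cluster 6, at 44.6%, and cluster 8, at 32.1%, above it. Unthinned, the shares of clusters 1, 7, 8 and 11 were 55.8%, 22.4%, 68.7% and 38.3%.

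**Figure D4:**
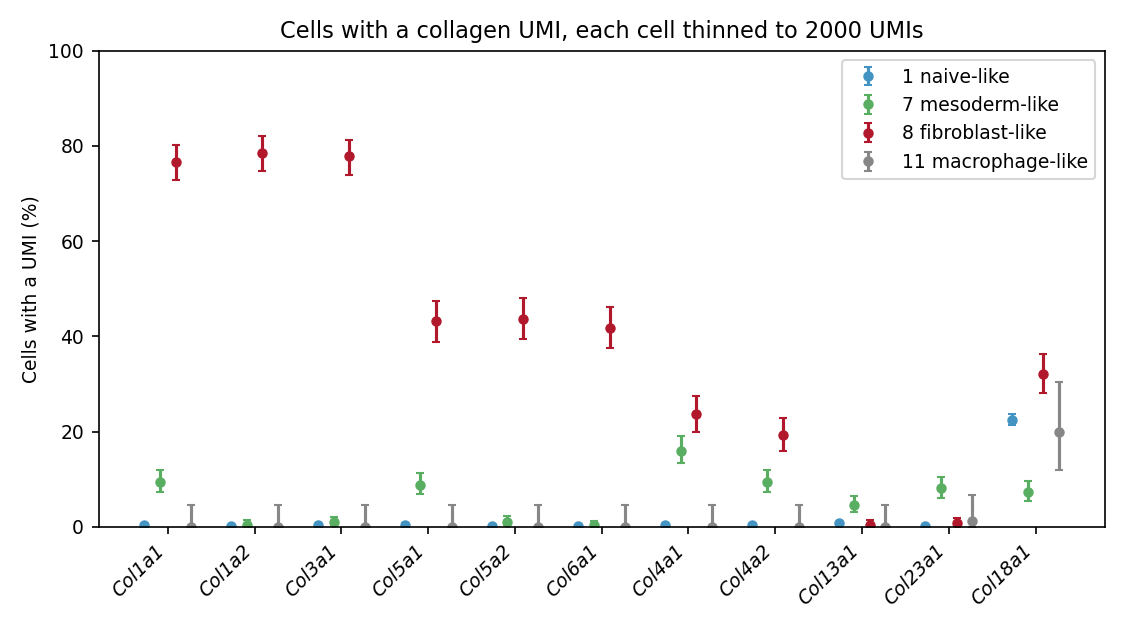
Percent of cells with a UMI of 11 collagen genes in clusters 1, 7, 8 and 11, after each cell was thinned to 2000 UMIs, with exact binomial 95% intervals. Col1a1, Col1a2 and Col3a1 are seen in 76.6% to 78.5% of cluster 8 cells, Col4a1 in 124 of 526 cells of cluster 8 and 103 of 643 of cluster 7, and Col18a1 in all of the clusters shown.

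The 682 cells of cluster 6 were the shallowest, at a median depth of 2644 UMIs, of which 8.16% were mitochondrial. Col4a6, at 24.4 CPM, and Col18a1 were higher there, 2 of 5 members tested, and 3 were lower. As 32.4% of all genes were higher in cluster 6 and 15.1% lower, the share that was higher is near the background. Without cluster 8 in the reference both stayed higher, 2 of 2 tested, and 0 were lower, against 32.6% and 14.6% of all genes. The two-cell-like cluster 10, named from Zscan4 genes, had 1 of 5 members higher and 3 lower, against 8.81% and 4.47% of all genes. The higher one was Col13a1, at 26.1 CPM (18.6 to 35.5) against 3.57 CPM. Without cluster 8 it was the only call, 1 of 2 tested, against 8.85% higher and 3.89% lower. Col6a4 also had its highest level there, with 23 UMIs (9.51 to 22.5 CPM). In the macrophage-like cluster 11, 0 of 4 members were higher and 3 lower, against 14.9% and 22.4% of all genes, and without cluster 8 the 1 member tested was not called, against 15.5% and 22.9%.

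Cluster 9, an unnamed set of 235 cells led by Fabp7, Pax3 and Zic1, held markers of several types. Raised in it were 5 of 7 neuron markers, 3 of 8 neuroectoderm markers (with a list sum of 736 against 61.3 CPM) and 3 of 10 caudal epiblast markers (1405 against 184 CPM). Also raised were 2 of 6 smooth muscle or pericyte markers (Acta2 and Tagln, 339 against 98.3 CPM), 2 of 13 fibroblast or feeder markers (178 against 188 CPM), Plat and Sfrp2. Of 14 members tested, 8 were higher and 0 lower, against 10.8% and 4.46% of all genes. They were Col1a2, Col2a1, Col4a5, Col5a2, Col6a1, Col11a1, Col25a1 and Col26a1. Without cluster 8 in the reference 13 of 14 were higher and 0 lower, against 11.5% and 4.38%. These 13 had at most 10.5 CPM in that reference, so none of them could be called lower. Col2a1 had 81.4 CPM (65.8 to 99.5), Col25a1 42.8 CPM (31.8 to 56.5) and Col26a1 31.7 CPM (22.3 to 43.7). Cluster 8 had 1.31, 4.80 and 0.436 CPM of these genes.

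A few cells carried much of the fibrillar signal of cluster 9. The 13 cells with at least 5 fibroblast marker UMIs had a fibrillar sum of 3523 CPM and held 222 of its 649 fibrillar UMIs. In the 222 other cells the fibrillar sum was 387 CPM, with Col1a1 at 67.9 CPM and Col3a1 at 76.1 CPM. Col2a1 was 83.3 CPM (67.1 to 102) in the 222 cells, so its level remained without the marker-rich cells. In the 13 marker-rich cells it was 47.6 CPM (9.82 to 139). Col26a1 was 24.4 CPM (16.1 to 35.6) in the 222 cells and 159 CPM (76.1 to 292) in the 13 marker-rich cells. Col25a1 was 32.6 CPM (22.8 to 45.1) in the 222 cells and 222 CPM (121 to 373) in the 13 marker-rich cells. Col25a1 and Col26a1 were thus higher in the marker-rich cells beyond counting error. The part of fibroblast-like or smooth muscle RNA in the remaining fibrillar level was not tested.

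Cluster 12, with 45 cells led by Shh and Lmx1a, had 7 of 13 members higher and 4 lower, against 13.9% and 8.06% of all genes. Without cluster 8 in the reference 9 of 10 were higher and 0 lower, against 14.6% and 8.06%. These 9 had at most 10.7 CPM in that reference, so none of them could be called lower. Col2a1 reached 218 CPM (164 to 283), Col4a5 115 CPM (76.9 to 165) and Col9a1, a chain that sits on cartilage fibrils, 51.5 CPM (27.4 to 88.0). Col9a1 rested on 13 UMIs. Of the 6 chondrocyte markers, Sox9 was raised and 2 were at 0. Also raised were 2 of 18 primitive streak and mesoderm markers (T and Bambi) and 2 of 7 definitive endoderm markers (Foxa1 and Foxa2). So were 2 of 10 caudal epiblast, 2 of 8 neuroectoderm, 3 of 10 simple epithelium and 3 of 6 smooth muscle or pericyte markers, and Plat and Postn. The streak and mesoderm list sum was 542 against 103 CPM, and that of simple epithelium 590 against 740 CPM. The part of these cell types was not tested.

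Genes that act on collagen were listed by role and read by the same rule. In cluster 8, 12 of 19 hydroxylases and chaperones were higher and 0 lower, with a median log2 ratio of 1.92 over the 16 tested, against -0.15 over all genes and 17.5% of them higher. Serpinh1, the collagen chaperone also called Hsp47, was 838 CPM in cluster 8, 319 CPM in cluster 7 and 43.4 CPM in cluster 1. Clusters 9 and 12 had more of it than cluster 7, at 411 and 420 CPM. P4ha3, a prolyl hydroxylase subunit, was 23.1 CPM in cluster 8. Colgalt2, which adds galactose to collagen, was highest in cluster 10 at 53.5 CPM, and P3h2, a prolyl 3-hydroxylase, in cluster 9 at 34.3 CPM. In cluster 7 Serpinh1 was the only one of the 19 that was higher, of 8 tested, against 5.90% of all genes.

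Of the 8 genes that trim procollagen ends, 3 were tested in cluster 8, and these 3 were higher. They were Pcolce, an enhancer of this step, at 179 CPM, and the proteinases Bmp1 and Tll1 at 93.5 and 44.3 CPM. In the other cells they had 6.44, 3.42 and 7.32 CPM, so they were tested through cluster 8 alone and could not be called lower. In cluster 7, Tll1 at 51.7 CPM and Adamts3 were higher, 2 of 3 tested. Over all genes tested, 17.5% were higher and 14.0% lower in cluster 8, and 5.90% were higher in cluster 7. Pcolce2, a relative of Pcolce, had 30.6 CPM in cluster 7 and 9.59 CPM in cluster 8. Of 6 cross-linking enzymes, 4 were higher in cluster 8 and 0 lower, namely Lox at 150 CPM, Loxl1 at 130 CPM, Loxl2 at 85.0 CPM and Loxl3 at 65.6 CPM. Loxl2 was also higher in cluster 10, at 71.1 CPM, where 8.81% of all genes were. Cluster 7 had 0.225 CPM of Lox. Pxdn, the peroxidase that cross-links type IV collagen, was the 1 gene of this list tested in cluster 7 and was higher there. It was also higher in clusters 6, 9 and 12, where 32.4%, 10.8% and 13.9% of all genes were.

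Of 12 basement membrane partners, 7 were higher in cluster 8 and 1, Lama5, was lower, with a median log2 ratio of 2.25 over 10 tested. Over all genes tested 17.5% were higher there and 14.0% lower. Sparc, a collagen-binding protein, had 1360 CPM, Nid1, which links laminin to type IV collagen, 155 CPM, and the laminin chains Lama4 and Lama2 63.9 and 29.0 CPM. In cluster 7, 0 of the 7 partners tested were higher or lower, with a median of -0.09, beside 5.90% higher and 5.53% lower over all genes, so the count does not set the partners apart from other genes. Of 9 collagen receptors, 3 of the 4 tested were higher in cluster 8, against 17.5% of all genes, and the 1 tested in cluster 7, Itgb1, was not called. Ddr2, a receptor for fibrillar collagen, was 123 CPM in cluster 8 and 0.225 CPM in cluster 7. It was also higher in clusters 10 and 12, at 37.8 and 43.5 CPM, where 8.81% and 13.9% of all genes were. The integrin chains Itgb1 and Itga1 had 481 and 34.7 CPM in cluster 8, and Ddr1, the epithelial relative of Ddr2, was highest in clusters 9 and 5, at 46.3 and 44.9 CPM. Of 6 collagenases and gelatinases, Mmp2 (184 CPM), Mmp14 (104 CPM) and Mmp13 (34.7 CPM) were higher in cluster 8, 3 of 3 tested. The 6 summed to 19.7 CPM in the other cells, so these 3 were tested through cluster 8 alone. In cluster 11 Mmp8, Mmp13 and Mmp14 were also higher, 3 of 3 tested. Mmp2 and Mmp14 were higher in cluster 9, 2 of 2 tested, and Mmp14 in cluster 12, 1 of 1 tested. Mmp9, which degrades type IV collagen, was higher in cluster 7 at 27.7 CPM, 1 of 3 tested. The shares over all genes were 17.5% in cluster 8 and 5.90% in cluster 7. Mmp2 is also among the fibroblast markers that named cluster 8.

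The type IV sum had the pattern most like it, over the 10 clusters of at least 100 cells, in Ube2r2 (Pearson r of log2(CPM + 1) 0.976), Ptpn9 (0.965), Cacna1c (0.962), Hmga2 (0.961) and Wls (0.953). Hmga2, a chromatin protein of embryonic cells, was 1306 CPM in cluster 8, 573 CPM in cluster 7 and 14.4 CPM in cluster 1. The points share 1 library and differ in depth, and genes were ranked on the same values, so this is a description.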

How the data were processed

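The values used are unnormalized UMI counts of 2578653 barcodes in 1 deposited matrix. Per the file headers the authors' software was Cell Ranger 8.0.1. The deposited tag table gives an assignment probability, a fraction, for each of 21593 called cells. Of these, 59 were assigned to CMO311 and 64 to CMO312. The genome build of the files is not given in the sources used here. Coordinates and sequences come from the reference tables alone. Collagen members and gene lists were chosen with earlier results of these data known.

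Cells were clustered with scanpy 1.11.5 and leidenalg 0.10.2 (2000 variable genes without collagen or cell cycle genes, 30 components, 15 neighbours, resolution 0.5). Doublets were called with Scrublet (expected rate 0.1) and left in. UMIs were summed per cluster. A member is named where it reached 20 CPM in a cluster of at least 100 cells. Of each list of genes that act on collagen, up to 4 with the largest ratio between clusters are named with values, beside the genes that passed the rule, and for the type IV sum the 5 genes most correlated with it. Limits for a count of 0 use 3 counts. Alternatives were other cell filters, resolution 1.0, collagen genes allowed in the clustering, no doublets, another total, free RNA subtracted, other thresholds and thinning to 1000 UMIs. Splits of clusters 7 and 9 and the reference without cluster 8 were chosen after seeing the data.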

Additional observations from a re-analysis of the deposited data

Results flagged for a closer look

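Called cells outside the main cell filter, part of which the lenient filter takes in, held some collagen sums above the level of cell-free droplets. Over all 4752 such cells the fibrillar sum was 92.9 CPM (85.6 to 101), an interval that includes the 90.0 CPM of the droplets. In 3345 called cells under the gene minimum, the fibrillar sum was 121 CPM, the type IV sum was 51.6 CPM against 27.0 CPM, and Col18a1 was 287 CPM against 139 CPM. In 4308 called cells over the mitochondrial maximum, the type IV sum was 53.8 CPM and Col18a1 301 CPM, while the fibrillar sum, at 70.5 CPM, was below the droplets. The 2 sets overlap, and their median depths were 954 and 1216 UMIs.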

How the results depend on the processing

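The number of members higher in cluster 8 was 15, and was 16 with mitochondrial and ribosomal genes out of the total and 21 with a minimum of 5 CPM. The share of fibrillar UMIs in cluster 8, 82.3%, became 83.7% under the strict cell filter, 81.6% under the lenient one, 84.0% with collagen genes in the clustering, 82.9% without doublets, 83.2% with free RNA subtracted and 81.8% for cells with at least 5 fibroblast marker UMIs. The ratio of fibrillar to type IV UMIs was 17.5 in cluster 8 without doublets, and 1.26 in other cells with collagen genes in the clustering. Of 220 values of named members by cluster, 62 were called. Recounted with another total and without doublets, 0 of these calls were lost or reversed. Some called ratios were under 3-fold, such as 2.49 for Col5a1 in cluster 7 and 2.21 for Col1a2 in cluster 9. The total without mitochondrial and ribosomal genes gave 79 calls and moved the median of all genes by up to 0.15 (log2), and leaving out doublets gave 66 and up to 0.18. Thinning to 1000 UMIs lowered the share of cells with Col1a1 in cluster 8 to 60.5%. No paired analysis was possible because the pooled counts carry no sample, so neither group has values of its own. Depth limits genes with few UMIs, such as those of clusters 11 and 12.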
